A study of Mus musculus with 4 samples.

Results

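The cytotoxic effector genes described here are Gzma, Gzmb, Gzmk, Gzmm, Prf1, Nkg7, Ifng and Fasl. They were chosen by symbol, and all 8 were found among the 31053 genes of the count tables. They were followed in lung CD45.2+ immune cells of C57BL/6 mice in 4 groups, with 1 single-cell library in each group. DPBS WT and Papain WT mice were Ift20 f/f, and DPBS KO and Papain KO mice were Ift20 f/f CD4 cre. All groups thus carried the floxed Ift20 alleles, and the KO groups also carried Cre under the control of Cd4. This Cre also acts in precursors of CD8 T cells, because they pass through a stage with CD4. Papain, a protease allergen, was given into the nose at 25 µg on 3 days, with a challenge on day 14 and harvest on day 15, and the DPBS groups received buffer. The number of mice behind a library was not given in the sources used here.

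Cytotoxic lymphocytes kill by more than one route. Their granules release perforin, encoded by Prf1, which forms pores in the target membrane, and granzymes, which are serine proteases that cut proteins in the target. Nkg7 encodes a membrane protein of these granules that takes part in their release. Fas ligand, encoded by Fasl, engages the death receptor Fas on the target. Interferon gamma, encoded by Ifng, is a cytokine these cells share with type 1 helper T cells. Natural killer (NK) cells carry granule proteins before they meet a target, whereas naive CD8 T cells make most of them after activation.

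With 1 library per group, no difference between groups could be tested against the spread between mice, and a group cannot be told apart from its library. Levels are UMIs (unique molecular identifiers, each a counted RNA molecule) of a gene scaled to the total UMIs of its class, as CPM, with exact Poisson 95% intervals in brackets. Shares of cells carry exact binomial intervals and log2 ratios exact conditional binomial intervals. All intervals cover counting error only. A ratio was called past 2-fold when it reached 2-fold either way with at least 20 UMIs in both libraries together. Sets of 4 values give WT and then KO after DPBS, followed by WT and KO after papain.

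The libraries held 5430 to 7575 cells after filtering, with median depths of 5827 to 6680 UMIs, and any pair shared at most 14 kept cell barcodes. Clustering, from which the 8 genes were left out, gave 361 NK-like, 3124 CD8 T-like, 4222 CD4 T-like and 99 gamma-delta T-like cells. A further 409 cells formed a T cell sub-cluster led by Xcl1, Cd160 and NK receptor genes, called T cells with NK receptors here, and 247 were dividing T and NK cells. Of the NK-like cells, 86.7% had a UMI of Ncr1 and 3.60% one of Cd3e. Ift20 was lower in the KO library in CD8 T-like cells, with a log2 ratio of −1.69 [−2.05 to −1.34] after DPBS and −1.62 [−1.95 to −1.30] after papain. In CD4 T-like cells the Ift20 ratios were −1.28 [−1.60 to −0.97] and −1.50 [−1.81 to −1.19]. In NK-like cells the Ift20 intervals included no change, at −0.04 [−0.57 to 0.48] and −0.25 [−0.89 to 0.40].

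The 8 genes lie on 5 chromosomes of GRCm38, the assembly that mm10 names. Gzma (chr13:113093825-113100981) and Gzmk (chr13:113171608-113225908) are both on the minus strand of chromosome 13, and Gzmb (chr14:56258838-56262260) is on the minus strand of chromosome 14. Prf1 (chr10:61297833-61304680), Gzmm (chr10:79689020-79695261) and Ifng (chr10:118441046-118445892) are on the plus strand of chromosome 10. Nkg7 (chr7:43437073-43438249) is on the plus strand and Fasl (chr1:161780689-161788495) on the minus strand.

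The upstream sequences of 3 granzyme genes are shown because Gzma and Gzmb were both high in NK-like cells, where Gzmk was nearly absent. Each is the 250 bases before the RefSeq start (GRCm38.p6), 5′ to 3′ on the strand of the gene. The windows are chr13:113100982-113101231 for Gzma, chr14:56262335-56262584 for Gzmb and chr13:113180966-113181215 for Gzmk, the last inside the longer annotated span of that gene. Capitals mark matches on either strand to TGTGGT, the core letters of a Runx motif, or GTGTGA, the core letters of a T-box motif. TATAAA was searched as well, and was found in none of these 3 windows.
Gzma: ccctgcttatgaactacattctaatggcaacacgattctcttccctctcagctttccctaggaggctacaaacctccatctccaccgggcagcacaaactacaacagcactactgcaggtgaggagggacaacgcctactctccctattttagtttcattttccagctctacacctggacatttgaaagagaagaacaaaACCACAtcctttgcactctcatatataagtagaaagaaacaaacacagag
Gzmb: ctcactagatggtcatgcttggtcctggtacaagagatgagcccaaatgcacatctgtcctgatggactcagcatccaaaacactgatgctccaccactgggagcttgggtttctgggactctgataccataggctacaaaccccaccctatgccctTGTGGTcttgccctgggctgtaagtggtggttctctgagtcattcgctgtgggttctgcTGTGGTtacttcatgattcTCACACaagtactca
Gzmk: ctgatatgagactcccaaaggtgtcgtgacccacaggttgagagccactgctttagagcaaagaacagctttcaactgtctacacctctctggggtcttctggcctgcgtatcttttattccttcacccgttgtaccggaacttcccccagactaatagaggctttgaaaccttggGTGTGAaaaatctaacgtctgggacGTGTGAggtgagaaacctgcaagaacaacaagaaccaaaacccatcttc
The Gzma window held 1 Runx and 0 T-box matches, the Gzmb window 2 and 1, and the Gzmk window 0 and 2. Of 32851 promoter windows of this length, 14.0% held the Runx letters, 12.3% the T-box letters and 12.4% TATAAA. These matches describe letters only.

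Gzma, Gzmb, Prf1, Nkg7 and Fasl were higher in NK-like cells than in every T cell class and in B-like cells, in each of the 4 libraries. Gzma, which encodes a tryptase-like granzyme, was the most abundant member there, at 6886 [6709 to 7067], 5531 [5307 to 5762], 7442 [7128 to 7767] and 7472 [7245 to 7704] CPM. A Gzma UMI was seen in 92.3% to 98.9% of NK-like cells. In B-like cells, which should lack Gzma, it was at 0.741 to 2.08 CPM with a UMI in 0.342% to 0.974% of cells, at median depths of 3884.5 to 4783 UMIs against 4779 to 5752 in NK-like cells. Gzma was 47.9-fold to 482-fold higher in NK-like than in CD8 T-like cells, and every interval excluded no change.

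Gzmb, whose product cuts after aspartate and activates caspases, stood at 1022 [954 to 1093], 1056 [959.7 to 1160.3], 1074 [957 to 1202] and 1133 [1046 to 1226] CPM in NK-like cells. Its 4 levels differed little from library to library. Prf1 stood at 786 [727 to 848], 885 [796 to 980.2], 1067 [950.3 to 1195] and 913 [835 to 997] CPM, 20.1-fold to 26.4-fold above CD8 T-like cells. Nkg7 stood at 3330.4 [3208 to 3457], 2802 [2643 to 2968], 3223 [3017 to 3439] and 3276 [3126 to 3430.5] CPM, and every NK-like cell had at least 1 UMI of it. Its excess over CD8 T-like cells was 5.69-fold to 6.68-fold, the smallest of the genes led by NK-like cells.

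Fasl was at 124 [101 to 150.3], 116 [85.6 to 154], 134 [95.03 to 184] and 125 [97.6 to 159] CPM in NK-like cells. It exceeded the Fasl level in T cells with NK receptors by 1.82-fold to 3.51-fold, with every interval above no change. Ifng did not always lead in NK-like cells, where it was at 339 [301 to 381], 162 [126 to 206], 601 [514 to 698] and 266 [224 to 312] CPM. In T cells with NK receptors Ifng was at 176 [148 to 208], 233 [192 to 281], 260.4 [229.6 to 294] and 261 [227 to 299] CPM. NK-like cells were therefore higher in Ifng in 3 of the libraries and lower in DPBS KO. In Papain KO, however, the levels were close and their intervals overlapped. In DPBS KO, 1 of the T cells with NK receptors held 51 of their 110 Ifng UMIs.

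Gzmk and Gzmm followed another order. In NK-like cells Gzmk had 1 to 7 UMIs per library, at 2.42 to 12.7 CPM, and 1.54% to 3.85% of cells had one. CD8 T-like cells held 2.41 to 12.6 CPM of Gzmk, and in none of the 4 libraries did the counting interval of the ratio between these classes exclude no change. Gzmm, which encodes a granzyme that cuts after methionine, was at 19.3 [11.004 to 31.3], 12.1 [3.92 to 28.2], 3.53 [0.0895 to 19.7] and 16.4 [7.48 to 31.1] CPM in NK-like cells and at 21.5 [18.3 to 25.1], 23.2 [19.2 to 27.8], 38.6 [33.5 to 44.3] and 13.6 [10.9 to 16.8] in CD8 T-like cells. It was higher in CD8 T-like cells in 3 libraries, and the interval excluded no change in 1 of the 4.

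**Figure D1:**
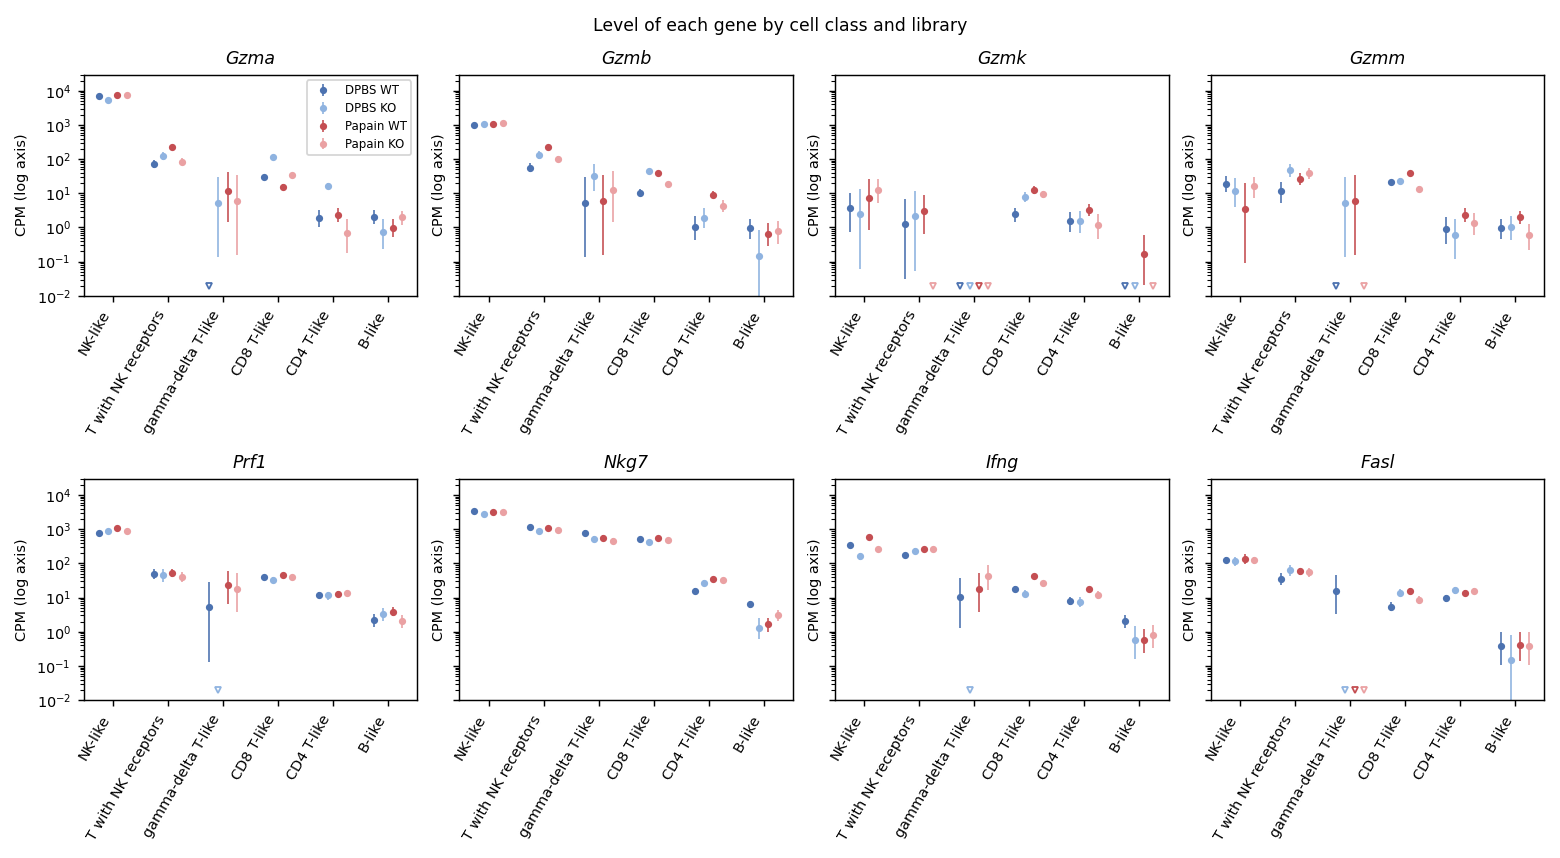
Level of each gene (CPM, log axis) by cell class, with 1 point per library, exact Poisson 95% intervals, and open triangles at the foot where no UMI was counted. Gzma, Gzmb, Prf1, Nkg7 and Fasl are highest in NK-like cells in all 4 libraries, whereas Gzmk and Gzmm are not.

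Most NK-like cells had transcripts of several granule genes. Cells with a UMI of Gzma, Gzmb and Prf1 at once made up 64.5%, 64.6%, 69.2% and 79.8% of NK-like cells, and 0.372%, 1.52%, 0.766% and 0.812% of CD8 T-like cells. Each of these genes was common in NK-like cells. In DPBS WT, Gzma was seen in 148, Gzmb in 111 and Prf1 in 139 of 155 cells. Whether these genes occurred together beyond their own shares was not tested. The median NK-like cell had 5 of the 8 genes in every library, and the median CD8 T-like cell had 1. Over the 4 libraries together, Ifng and Fasl were close to unlinked in NK-like cells, with Fasl in 47.4% of cells with Ifng and in 44.1% of cells without. In CD8 T-like cells, Gzmb was seen in 34.3% of cells with Gzma and in 3.12% of cells without.

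T cells with NK receptors held intermediate levels, with Gzma at 73.0, 123, 221 and 85.4 CPM, Gzmb at 56.7, 131, 229 and 101 CPM and Nkg7 at 1151, 920.4, 1076 and 931 CPM. Papain WT was the highest of these libraries for Gzma and Gzmb, where the 5 richest cells held 91.8% and 72.2% of the UMIs. Gamma-delta T-like cells, with 21 to 28 cells per library, had Nkg7 at 800.3 [678 to 939], 520.4 [422 to 635], 557 [449 to 682] and 457 [359.7 to 573] CPM. Each of the other 7 genes had at most 7 UMIs in any library of gamma-delta T-like cells, too few to rank. No Gzmk UMI was found there, which allows a share of cells with a UMI of up to 10.7%, 12.5%, 11.5% and 14.3%.

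CD8 T-like cells were mostly positive for Nkg7 and rarely for a granzyme. Nkg7 was seen in 83.5%, 75.1%, 86.4% and 83.6% of them, and in 35.1%, 26.9%, 37.1% and 32.7% after every cell was thinned to 1000 UMIs. In CD4 T-like cells Nkg7 was seen in 2.59% to 5.28%, and in B-like cells in 0.616% to 1.55%. Prf1 was seen in 20.5% to 29.4% of CD8 T-like, 6.22% to 8.25% of CD4 T-like and 0.935% to 2.05% of B-like cells. Gzma was seen in 2.42% to 4.26% and Gzmb in 2.89% to 5.32% of CD8 T-like cells.

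CD8 T-like cells exceeded CD4 T-like cells by 15.4-fold to 32.8-fold in Nkg7, 2.91-fold to 3.51-fold in Prf1 and 1.76-fold to 2.48-fold in Ifng over the libraries. Fasl over the whole classes had no such order. Its CD8 to CD4 ratio was 0.556-fold to 1.13-fold, CD8 T-like cells were higher in 1 library, and the interval excluded no change in 2 of the 4. S5, a CD8 sub-cluster, held Fasl at 15.8, 27.4, 24.0 and 16.9 CPM. With S5 and the mixed sub-clusters set aside, Nkg7 and Fasl ran in opposite directions. In the CD8 sub-clusters named whole, other than S5, Nkg7 was at 407, 277, 373 and 369.9 CPM and Fasl at 1.66, 2.88, 3.06 and 1.41 CPM. In the CD4 sub-clusters named whole, Nkg7 was at 4.09, 2.97, 2.74 and 2.36 CPM and Fasl at 8.35, 14.4, 9.41 and 12.98 CPM. The CD8 set was 93.4-fold to 157-fold higher in Nkg7, whereas its Fasl was lower in every library, with log2 ratios of −2.33, −2.32, −1.62 and −3.20 that all excluded no change. These sets were put together after their values had been seen. Fasl in S5, which was left out, was above the level of the CD4 set in every library. The Fasl order therefore holds for these chosen sets only, and it was not worked out with S5 put back.

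S5, a CD8 sub-cluster led by Gzmm, Samd3, Eomes and Cxcr3, held Gzmm at 87.1, 76.9, 95.4 and 52.9 CPM. In the other whole-named CD8 sub-clusters Gzmm was at 0.865 to 3.499 CPM. Gzma in S5 was at 2.94 to 11.2 CPM and Prf1 at 40.2 to 59.8 CPM. S4, a sub-cluster with Cxcr3, Pdcd1 and Tnfsf11 among its leading genes, holds CD4 and CD8 cells side by side. In S4, Gzma was at 293, 883, 38.3 and 196 CPM, Gzmb at 74.5, 279, 82.9 and 86.6 and Gzmk at 27.2, 64.7, 35.7 and 64.9. It held 43, 34, 44 and 48 CD8 T-like and 51, 31, 182 and 43 CD4 T-like cells.

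**Figure D2:**
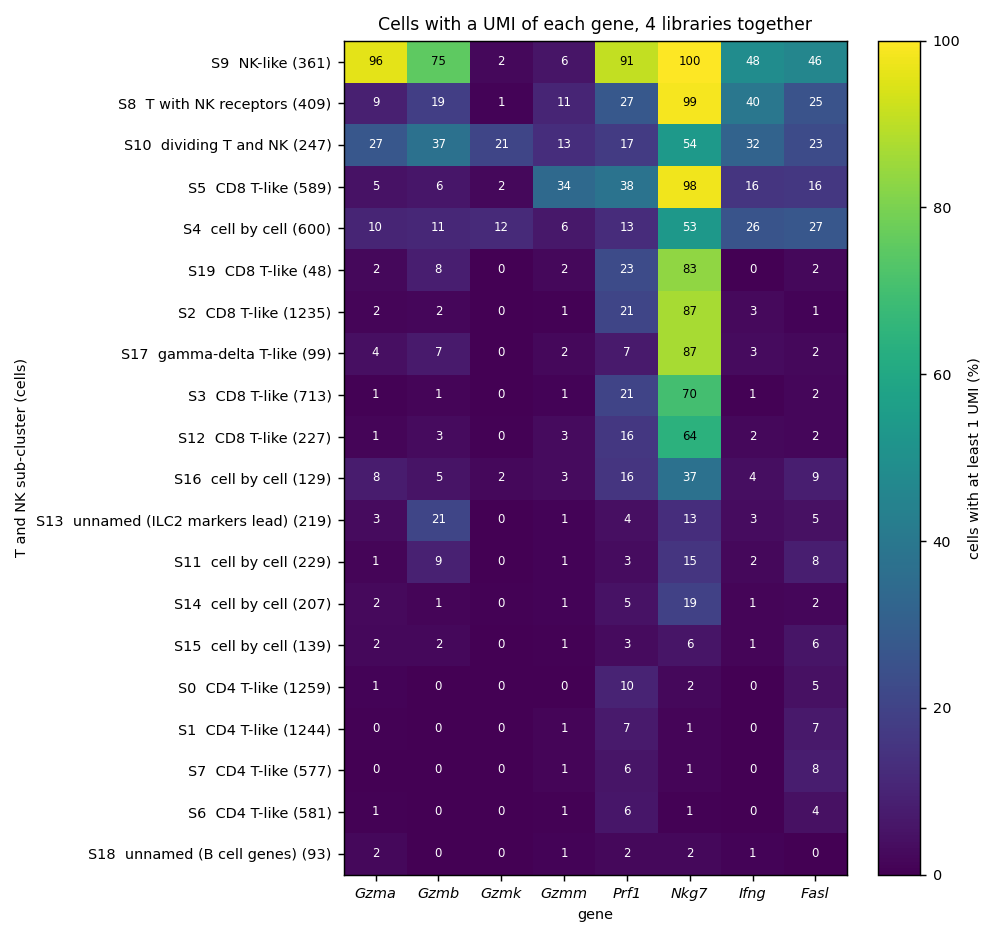
Share of cells with at least 1 UMI of each gene (columns, %) in the T and NK sub-clusters (rows, with their number of cells), over the 4 libraries together. NK-like S9 is high for Gzma, Gzmb, Prf1 and Nkg7, and Gzmm is high in S5.

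Genes of like pattern were sought over 74 sums of sub-clusters by library, which share libraries and cell types, so that Pearson r is a description. Of 9566 genes, those nearest to Gzma were S1pr5 (0.85), Klrb1c (0.84) and Tbx21 (0.84). Nearest to Gzmb were AW112010 (0.88), Metrnl (0.87) and Serpinb6b (0.86). Nearest to Nkg7 were Cst7 (0.90), Il2rb (0.87) and Sytl3 (0.86). Nearest to Ifng were Ccl5 (0.88), Tbx21 (0.85) and Xcl1 (0.84). Nearest to Prf1 were Eomes (0.76), Klra8 (0.73) and Klra4 (0.73). Nearest to Gzmm were Klrc1 (0.71), Ccl5 (0.71) and Samd3 (0.71). Gzmk was closest to Gzma (0.74), Ccnb2 (0.70) and Tbx21 (0.68), and Fasl to Itgax (0.73), Klre1 (0.70) and Gas7 (0.68).

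The comparison of KO with WT asks whether these genes differ when Ift20 is deleted in T cells. In NK-like cells Ifng alone passed 2-fold, and it was lower in KO in both treatments. The log2 ratio was −1.07 [−1.47 to −0.68] after DPBS, with 67 UMIs in KO and 282 in WT, and −1.18 [−1.51 to −0.85] after papain, with 146 and 170 UMIs. That was 1 of 7 members with enough UMIs after DPBS, where 6.86% of all genes passed the same rule, and 1 of 6 after papain, where 6.48% did. Under the other settings the Ifng ratio ran from −1.33 to −0.41 after DPBS and from −1.200 to −0.89 after papain. The DPBS ratio did not reach 2-fold with cells gated on transcripts (−0.41), with clusters made without integration (−0.80) or with a mean over cells (−0.85), nor did the papain ratio with both doublets kept and cells gated on transcripts (−0.89). After DPBS an Ifng UMI was seen in 52.9% [44.7 to 61.0] of WT and 38.5% [26.7 to 51.4] of KO NK-like cells, and after papain in 48.1% [34.0 to 62.4] and 48.3% [37.6 to 59.2]. The 5 richest cells held 29.1%, 53.7%, 57.6% and 39.0% of the Ifng UMIs.

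Gzma was lower in NK-like cells of DPBS KO than of DPBS WT, with a ratio of −0.32 [−0.39 to −0.25], and its ratio after papain was 0.01 [−0.07 to 0.08]. For Gzmb both intervals held no change, at 0.05 [−0.12 to 0.22] and 0.08 [−0.12 to 0.28], as they did for Fasl, at −0.09 [−0.62 to 0.41] and −0.10 [−0.69 to 0.51]. Papain against DPBS passed 2-fold for 0 of 6 members in WT and 0 of 6 in KO, where 7.77% and 5.4% of all genes did. Ifng was higher after papain in both genotypes, by 0.82 [0.54 to 1.10] in WT and 0.71 [0.29 to 1.15] in KO. The 4 contrasts share libraries and are not independent of each other.

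In CD8 T-like cells 4 of 8 members passed 2-fold between KO and WT after DPBS, all higher in KO, where 3.26% of all genes passed. Gzma was at 29.4 CPM in DPBS WT and 116 in DPBS KO, a ratio of 1.97 [1.75 to 2.20]. Gzmb was at 10.6 and 46.5 CPM, a ratio of 2.14 [1.76 to 2.52]. The ratio was 1.73 [0.90 to 2.62] for Gzmk and 1.34 [0.76 to 1.93] for Fasl. The 5 richest cells held 85.5% of the Gzma UMIs in DPBS WT and 76.5% in DPBS KO. Without the sub-clusters that mix CD4 and CD8 cells, the ratios were 0.36 for Gzma, 0.88 for Gzmb and 0.99 for Fasl. Gzmk then had 0 UMIs in DPBS KO and 4 in DPBS WT, so its 41 UMIs in DPBS KO all came from mixed sub-clusters. The median ratio was 0.72 over the members tested and −0.04 over all genes tested.

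After papain the members went in both directions in CD8 T-like cells, and 3 of 8 passed 2-fold between KO and WT, where 2.43% of all genes did. Gzma was higher in KO, at 15.4 CPM in WT and 34.5 in KO, a ratio of 1.16 [0.79 to 1.54]. The Gzma ratio was −0.11 without the mixed sub-clusters and −0.40 with clusters made without integration. Gzmb was lower in KO, with a ratio of −1.09 [−1.43 to −0.75], which ran from −1.12 to −0.55 under the other settings and was −0.57 without the mixed sub-clusters. Gzmm was also lower, at 38.6 CPM in WT and 13.6 in KO, a ratio of −1.50 [−1.88 to −1.13] that ran from −1.57 to −0.99 under the other settings. The intervals of Prf1 held no change in either treatment, at −0.22 [−0.50 to 0.06] and −0.15 [−0.41 to 0.11]. The median ratio was −0.58 over the members tested and −0.08 over all genes tested.

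Papain against DPBS in WT CD8 T-like cells passed 2-fold for 4 of 8 members, all higher after papain, where 3.02% of all genes passed. The ratios were 1.87 [1.49 to 2.26] for Gzmb, 2.39 [1.62 to 3.23] for Gzmk, 1.27 [0.96 to 1.59] for Ifng and 1.53 [0.97 to 2.10] for Fasl. Without the mixed sub-clusters the Gzmb ratio was 0.96, no longer past 2-fold, and those of Ifng and Fasl were 1.12 and 1.30. Gzmk then fell under the minimum of UMIs, with 11 in Papain WT, 4 in DPBS WT and a ratio of 1.96. In KO, 3 of 8 passed, where 2.22% of all genes did. Ifng was again higher after papain, with a ratio of 1.02 [0.60 to 1.45] that ran from 1.002 to 1.79 under the other settings. Gzma and Gzmb were lower, with ratios of −1.74 [−1.97 to −1.52] and −1.35 [−1.69 to −1.02]. Without the mixed sub-clusters the Gzma ratio in KO was 0.67, of the opposite sign, and with cells gated on transcripts it was −0.54. The Gzmb ratio in KO ran from −1.41 to −0.48 under the other settings.

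Nkg7 differed little between the libraries of CD8 T-like cells. It was slightly lower in KO in both treatments, with ratios of −0.24 [−0.32 to −0.16] and −0.21 [−0.28 to −0.14], and higher after papain in both genotypes, at 0.17 [0.10 to 0.24] and 0.20 [0.12 to 0.28]. Ifng stood at 18.2, 13.1, 43.9 and 26.4 CPM in these cells, and its ratios of KO over WT were −0.48 [−0.92 to −0.04] after DPBS and −0.73 [−1.03 to −0.44] after papain. Under the other settings the Ifng ratio ran from −1.22 to −0.0026 after DPBS and from −1.03 to −0.39 after papain, with −1.22 after DPBS without the mixed sub-clusters and −0.0026 with cells gated on transcripts. Fasl stood at 5.48, 13.9, 15.8 and 8.55 CPM, and after papain it was lower in KO, at −0.89 [−1.41 to −0.38], a ratio that ran from −1.13 to −0.60 under the other settings.

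**Figure D3:**
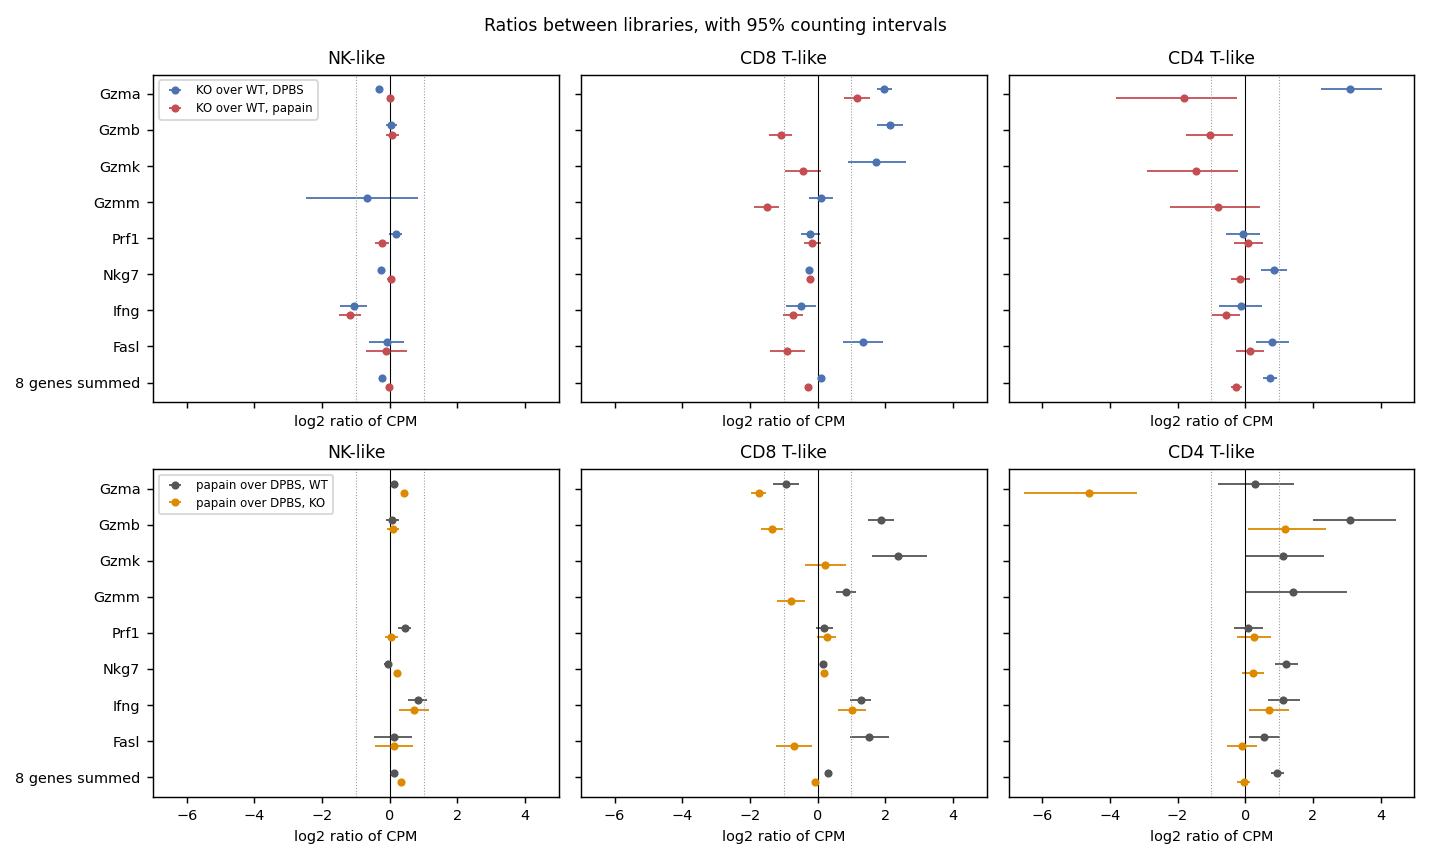
Log2 ratios of CPM between libraries with 95% counting intervals, by contrast and cell class, for members with at least 20 UMIs, with dotted lines at 2-fold. Ifng in NK-like cells is at −1.07 and −1.18 in KO over WT, and Gzmb in CD8 T-like cells at 2.14 after DPBS and −1.09 after papain.

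In CD4 T-like cells the summed level of the 8 genes was 50.4, 83.6, 96.9 and 80.5 CPM. The sum was 630.0, 680.4, 777 and 642 CPM in CD8 T-like and 15.2, 7.26, 10.4 and 9.62 in B-like cells. Nkg7 gave 3764 of the 4711 UMIs behind the sum in CD8 T-like cells of DPBS WT, so the sum does not rank each gene. Fasl was higher in CD8 T-like than in CD4 T-like cells in 1 library only. KO against WT after DPBS passed 2-fold for 1 of 5 members, where 2.89% of all genes did. This was Gzma, with 1.95 CPM in WT and 16.6 in KO, where 1 cell held 60% of the UMIs. The Gzma ratio of 3.09 [2.24 to 4.06] was 1.88 without the richest cell of each library and 0.12 without the mixed sub-clusters. After papain 3 of 8 passed, namely Gzma, Gzmb and Gzmk, all lower in KO, where 4.38% of all genes passed. The ratios were −1.82 [−3.84 to −0.23], −1.04 [−1.75 to −0.38] and −1.47 [−2.92 to −0.22], and without the richest cell of each library Gzmb was at −0.18. Gzma was at 0.20 without the mixed sub-clusters, and Gzmk at 1.16 with cells gated on transcripts.

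Papain against DPBS in WT CD4 T-like cells passed 2-fold for 5 of 8 members, all higher after papain, where 6.01% of all genes did. These were Gzmb (3.104 [1.99 to 4.47]), Gzmk (1.12 [0.02 to 2.34]), Gzmm (1.40 [0.02 to 3.02]), Nkg7 (1.204 [0.87 to 1.55]) and Ifng (1.13 [0.66 to 1.61]). Without the mixed sub-clusters the ratio was 0.01 for Gzmb, −0.58 for Nkg7 and −0.99 for Ifng. With cells gated on transcripts the ratio was −0.65 for Gzmb, −1.29 for Gzmk, −1.09 for Nkg7 and −0.95 for Ifng, all of the opposite sign. In KO, 2 of 6 passed, where 3.02% of all genes did. Gzmb was higher after papain (1.17 [0.07 to 2.38]) and Gzma lower (−4.62 [−6.53 to −3.21]). Under the other settings the Gzmb ratio in KO ran from 0.07 to 1.17, and the Gzma ratio was −0.92 without the mixed sub-clusters. Without the mixed sub-clusters no member passed with 20 UMIs in WT or KO. Gzmm was then under that minimum of UMIs, with ratios of 1.91 in WT and 1.31 in KO. Fasl was at 9.47, 16.4, 13.9 and 15.4 CPM, with ratios of 0.80 [0.31 to 1.29] in KO over WT after DPBS and 0.14 [−0.28 to 0.55] after papain.

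In T cells with NK receptors, Gzma and Gzmb were higher in KO after DPBS, at 0.75 [0.20 to 1.30] and 1.21 [0.64 to 1.80], and lower in KO after papain, at −1.37 [−1.78 to −0.98] and −1.18 [−1.56 to −0.81]. After DPBS, 1 cell of the KO library held 43 of 62 Gzmb UMIs and 1 cell 29 of 58 Gzma UMIs. The share of cells with a UMI was 17.3% [10.7 to 25.7] in WT and 16.4% [8.49 to 27.5] in KO for Gzmb, and 9.09% [4.45 to 16.1] and 8.96% [3.36 to 18.5] for Gzma. In Papain KO, 1 cell held 49 of 70 Gzma UMIs. In Papain WT the 5 richest cells held 91.8% of 219 Gzma UMIs and 72.2% of 227 Gzmb UMIs. After papain a Gzma UMI was seen in 12 of 133 WT and 8 of 99 KO cells, and a Gzmb UMI in 29 and 17. Nkg7 in T cells with NK receptors was lower in KO after both treatments, at −0.32 [−0.49 to −0.16] and −0.21 [−0.34 to −0.07]. In gamma-delta T-like cells the Nkg7 ratios of KO over WT were −0.62 [−1.004 to −0.24] after DPBS and −0.28 [−0.74 to 0.17] after papain.

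**Figure D4:**
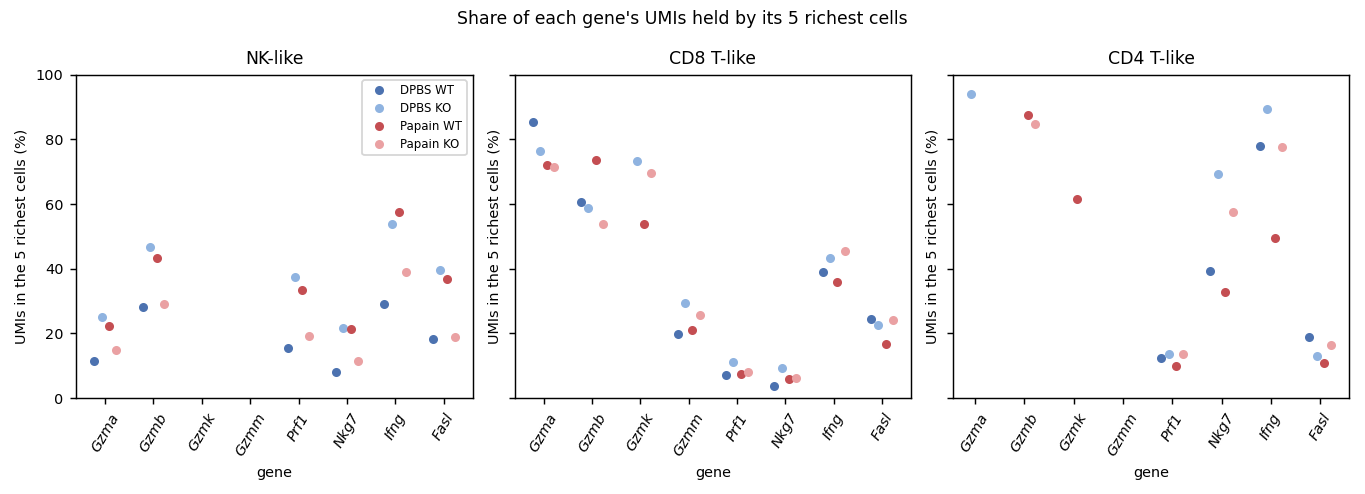
Share of the UMIs of each gene (%) held by its 5 richest cells, 1 point per library, for genes with at least 20 UMIs. The Gzma share is 11.4% to 25.0% in NK-like cells and 71.6% to 85.5% in CD8 T-like cells.

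Dividing T and NK cells, with median depths of 21326 to 29994.5 UMIs, held Gzma at 641, 1484, 291 and 942 CPM, and its richest cell in each library had 451, 427, 278 and 378 UMIs. Gzmk was at 47.0, 58.1, 15.0 and 87.3 CPM, above its level in NK-like cells and in each T cell class. Of all Gzmk UMIs of DPBS WT, 70.8% came from these 62 cells. The share from dividing cells was 39.8% in DPBS KO and 25.5% in Papain WT, where CD8 T-like cells held more, at 46.6% and 42.7%. In Papain KO dividing cells held 154 Gzmk UMIs and CD8 T-like cells 59. Papain WT was the lowest library for each of the 8 genes in dividing cells. The makeup of the dividing cells by lineage was not compared between libraries, and its part in these values was not tested.

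Of the genes around the members, Tbx21, a transcription factor of cytotoxic and type 1 cells, was at 136 to 184 CPM in NK-like and 5.38 to 14.7 CPM in CD8 T-like cells. Serpinb9, which encodes an inhibitor of granzyme B, was at 463 to 648 and 8.96 to 24.8 CPM in the same classes. None of the 6 other granzymes listed (Gzmc, Gzmd, Gzme, Gzmf, Gzmg and Gzmn) reached 20 UMIs in any contrast of NK-like, CD8 T-like or CD4 T-like cells.

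In NK-like cells after DPBS, with 6.86% of all genes past 2-fold, 1 of 4 granzyme inhibitors was past 2-fold higher in KO and 1 of 4 lower, namely Serpinb9b (1.73 [0.95 to 2.55]) and Serpinb6a (−1.58 [−3.57 to −0.04]). Of the death ligands and cytokines, 1 of 7 was higher, Fas, which encodes the receptor of Fas ligand (2.01 [0.70 to 3.44]), and 1 of 7 lower, the chemokine gene Ccl3 (−1.29 [−1.65 to −0.94]). After papain no gene of the 6 lists was past 2-fold in NK-like cells between KO and WT. With papain against DPBS, 7.77% of all genes passed 2-fold in NK-like cells of WT and 5.4% in those of KO. The chemokine gene Ccl4 was higher after papain in WT (1.14 [0.99 to 1.29]) and in KO (1.17 [0.94 to 1.40]). In WT, 1 of 4 granzyme inhibitors, 1 of 6 death ligands and cytokines and 1 of 7 receptors that induce or read Ifng were higher. In KO, 3 of 12 granule genes and 1 of 7 receptors were higher. Of the death ligands and cytokines in KO, 2 of 7 were higher and 1 of 7 lower.

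In CD8 T-like cells, with 3.26% of all genes past 2-fold after DPBS and 2.43% after papain, 1 of 3 granzyme inhibitors was past 2-fold higher in KO after DPBS, Serpinb9 (1.47 [1.03 to 1.92]), and 1 of 10 transcription factors lower after papain, Tbx21 (−1.45 [−2.08 to −0.85]). Papain against DPBS in WT CD8 T-like cells, with 3.02% of all genes past 2-fold, passed for 2 of 10 transcription factors, Bhlhe40 (1.13 [0.80 to 1.45]) and Tbx21 (1.11 [0.58 to 1.65]), and for 2 of 3 granzyme inhibitors, Serpinb9 (1.34 [0.89 to 1.79]) and Serpinb6b (1.13 [0.85 to 1.41]). In WT CD4 T-like cells, with 6.01% past 2-fold, it passed for 5 of 10 transcription factors, among them Bhlhe40 (2.52 [2.26 to 2.80]) and Tbx21 (2.40 [1.15 to 3.94]), and for 4 of 10 receptors that induce or read Ifng, among them Il18rap (2.17 [1.22 to 3.24]), all higher after papain. Between KO and WT CD4 T-like cells after papain, with 4.38% past 2-fold, 3 of 10 transcription factors were lower in KO, among them Bhlhe40 (−1.72 [−1.94 to −1.50]), as were 2 of 10 receptors, among them Il18rap (−1.65 [−2.60 to −0.79]), and 2 of 13 granule genes, among them Stx11 (−1.85 [−2.38 to −1.35]). Of the death ligands and cytokines there, 2 of 10 were lower and 1 of 10 higher, the latter Xcl1 (2.20 [1.32 to 3.18]). These ratios of listed genes are for whole classes, with the mixed sub-clusters kept. The mixed sub-cluster S4 held 51, 31, 182 and 43 of the 1205, 850, 1270 and 897 CD4 T-like cells. Whether the ratios of listed genes depend on the mixed sub-clusters was not tested.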

How the data were processed

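Lung 7-AAD-negative CD45.2+ cells of 4 groups were measured by droplet single-cell RNA sequencing (10x), with 1 library per group. The authors deposited raw UMI counts per gene and barcode, made with Cell Ranger (3.1.0 in the matrix header) on mm10 per the submitters' processing notes. Total UMIs per library were 53854420 to 75675956. Barcodes with more than 200 genes and under 15% mitochondrial UMIs were kept. Scrublet in scanpy 1.11.5 scored doublets, and the highest scores were removed at an expected 0.8% per 1000 barcodes, because its own threshold marked 0.0682% of barcodes in Papain KO. Cells were aligned and clustered with Seurat 5.3.0 (2000 variable genes, 30 dimensions, resolution 0.8 for all cells and 1.2 for T and NK cells), and classes were named from fixed markers.

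Counts were summed per class and library. No test between groups was made, because each group was 1 library. Pathway genes named had to pass 2-fold with 20 UMIs and an interval excluding no change, at most 6 per class and contrast, and 3 genes of like pattern were taken per member. Of the 10 alternatives, edgeR 4.0.16 gave TMM factors for 1. The members and lists were chosen with earlier results of these data known. The interval code was tested on simulated data. Upstream sequences came from RefSeq.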

Additional observations from a re-analysis of the deposited data

Results flagged for a closer look

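For several genes the log2 ratio of KO over WT was positive after one treatment and negative after the other, with both counting intervals excluding no change. The difference between the treatments was not tested, with 1 library per group. In CD8 T-like cells it was 3.22 for Gzmb (2.14 after DPBS and −1.09 after papain) and 2.23 for Fasl (1.34 after DPBS and −0.89 after papain). In CD4 T-like cells it was 4.91 for Gzma (3.09 after DPBS and −1.82 after papain), with 51 of 85 UMIs in 1 cell of DPBS KO. The papain ratio of Gzma rested on 19 UMIs in WT and 4 in KO. Without the mixed sub-clusters the Gzma ratios were 0.12 after DPBS and 0.20 after papain, of the same sign. In T cells with NK receptors the difference was 2.12 for Gzma (0.75 after DPBS and −1.37 after papain) and 2.39 for Gzmb (1.21 after DPBS and −1.18 after papain). There, 1 cell held 43 of 62 Gzmb UMIs and 1 cell 29 of 58 Gzma UMIs in DPBS KO. In Papain KO 1 cell held 49 of 70 Gzma UMIs, and in Papain WT 5 cells held 91.8% of the Gzma and 72.2% of the Gzmb UMIs. In dividing T and NK cells the difference was −3.47 for Ifng (−0.66 after DPBS and 2.80 after papain). There, 1 cell of DPBS KO held 42 of 77 Ifng UMIs, and Papain WT had 54 Ifng UMIs in 13 of 99 cells.

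Cells outside the classes compared also held members above their level in B-like cells. In a sub-cluster led by Foxp3 and Il2ra, left unnamed because markers of type 2 innate lymphoid cells were also among its leading genes, the lowest Gzmb level of the 4 libraries was 76.7 CPM. In T cells with no single Cd4 or Cd8 call, the lowest Nkg7 level was 181 CPM.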

How the results depend on the processing

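No paired analysis was possible because each group was 1 library and the labels give no replicate numbers, and for the same reason no library could be left out. Of 908 alternative values of single-gene ratios, 11 were of the opposite sign to a ratio past 2-fold and 101 moved beyond the counting interval. In these counts the values with doublets kept were compared with those of the transcript gate, not with the reported ratios. Set against the reported ratios past 2-fold in CD4 T-like cells, the values with doublets kept and classes gated on transcripts were of the opposite sign for KO/WT papain Gzma (1.35) and Gzmk (1.04), and for papain/DPBS WT Gzmb (−0.61), Gzmk (−1.04), Nkg7 (−1.13) and Ifng (−0.96). Of 284 alternative ratios of NK-like over CD8 T-like cells, 58 moved and 0 were counted as reversed. That count does not take in every change of sign. Gzmk in Papain WT, with 2 UMIs in NK-like cells, changed sign without the mixed sub-clusters. The CD8 sub-clusters named whole then held 11 Gzmk UMIs in S5 and 0 in the others, against 67 in the whole class. Of 136 summed ratios, 39 moved. Where no setting's own construction shows it, the cause was not tested. Gzmk in NK-like cells and all members but Nkg7 in gamma-delta T-like cells had too few UMIs for their ratios to be read.

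With classes gated on transcripts, the summed log2 ratio was −0.11 (KO/WT DPBS NK), 0.078 (KO/WT papain NK), 0.38 (KO/WT DPBS CD8), 0.00029 (KO/WT papain CD8), −0.62 (KO/WT DPBS CD4), 0.41 (KO/WT papain CD4), −0.94 (papain/DPBS WT CD4) and −0.034 (papain/DPBS WT gamma-delta). The number of members past 2-fold was 0 (KO/WT DPBS NK), 1 (papain/DPBS KO CD8), 4 (KO/WT DPBS CD4), 1 (KO/WT papain CD4) and 3 (papain/DPBS WT CD4). Single ratios of the opposite sign were Gzmk 1.16 (KO/WT papain CD4), Gzmb −0.65 (papain/DPBS WT CD4), Gzmk −1.29 (papain/DPBS WT CD4), Nkg7 −1.09 (papain/DPBS WT CD4) and Ifng −0.95 (papain/DPBS WT CD4). With doublets kept and classes gated on transcripts, the summed log2 ratio was −0.17 (KO/WT DPBS NK), 0.45 (papain/DPBS KO NK), −0.76 (KO/WT DPBS CD4), 0.61 (KO/WT papain CD4), −1.06 (papain/DPBS WT CD4), 0.31 (papain/DPBS KO CD4) and −0.16 (KO/WT DPBS gamma-delta). The number of members past 2-fold was 0 (KO/WT papain NK), 1 (KO/WT papain CD8) and 2 (KO/WT papain CD4). With a mean over cells, the summed log2 ratio was −0.16 (KO/WT DPBS NK), 0.19 (papain/DPBS WT NK), −0.038 (KO/WT DPBS CD8), 0.084 (papain/DPBS KO CD8) and −0.54 (KO/WT papain CD4). The number of members past 2-fold was 0 (KO/WT DPBS NK) and 1 (papain/DPBS KO CD4). With TMM factors, the summed log2 ratio was 0.039 (KO/WT papain NK), 0.047 (papain/DPBS WT NK), −0.19 (KO/WT papain CD8) and 0.22 (papain/DPBS WT CD8). With clusters made without integration, the summed log2 ratio was 0.22 (papain/DPBS KO NK), 0.015 (KO/WT DPBS CD8), −0.38 (KO/WT papain CD8), 0.37 (papain/DPBS WT CD8), −0.018 (papain/DPBS KO CD8), −0.081 (KO/WT papain CD4) and 0.17 (papain/DPBS KO CD4). The number of members past 2-fold was 0 (KO/WT DPBS NK). Single ratios of the opposite sign were Gzma −0.40 (KO/WT papain CD8). Without the sub-clusters that mix CD4 and CD8 cells, the summed log2 ratio was −0.43 (KO/WT DPBS CD8), 0.17 (papain/DPBS WT CD8), 0.32 (papain/DPBS KO CD8), 0.22 (KO/WT DPBS CD4), 0.0077 (KO/WT papain CD4) and 0.21 (papain/DPBS WT CD4). The number of members past 2-fold was 1 (KO/WT DPBS CD8), 1 (papain/DPBS KO CD8), 0 (KO/WT DPBS CD4), 0 (KO/WT papain CD4), 0 (papain/DPBS WT CD4) and 0 (papain/DPBS KO CD4). Single ratios of the opposite sign were Gzma −0.11 (KO/WT papain CD8), Gzma 0.67 (papain/DPBS KO CD8), Gzma 0.20 (KO/WT papain CD4), Nkg7 −0.58 (papain/DPBS WT CD4) and Ifng −0.99 (papain/DPBS WT CD4). The member past 2-fold in KO/WT DPBS CD8 was then Ifng (−1.22), lower in KO, and none of the 4 reported there passed. With the B-like level subtracted, the summed log2 ratio was 1.12 (KO/WT DPBS CD4) and 1.30 (papain/DPBS WT CD4). The number of members past 2-fold was 0 (papain/DPBS KO CD4). Without the richest cell, the number of members past 2-fold was 2 (KO/WT DPBS CD4). With no minimum of UMIs, the number of members past 2-fold was 2 (KO/WT papain NK), 1 (papain/DPBS WT NK) and 1 (papain/DPBS KO NK).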

Other observations

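In S11, a sub-cluster led by Il17re, Krt83 and Il17a, Gzmb was at 11.3, 28.3, 91.2 and 51.1 CPM in WT and KO after DPBS and in WT and KO after papain. These levels rested on 3, 7, 66 and 35 UMIs in 38, 30, 91 and 70 cells. A Gzmb UMI was seen in 5.26%, 6.67%, 6.59% and 15.7% of the cells. The Gzmb level in B-like cells of the same libraries was 0.992, 0.148, 0.666 and 0.785 CPM.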
